A study of Mus musculus with 11 samples.

Results

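The RNA that came down with hnRNP A1 from nuclear extracts of HuR-containing (HuR WT) mouse embryonic fibroblasts (MEFs) was compared with the total nuclear RNA of the same cells, taken from an aliquot of extract set aside earlier. HnRNP A1 is an abundant nuclear protein that coats nascent transcripts as part of hnRNP complexes, takes part in the choice of splice sites and shuttles with mRNA to the cytoplasm. HuR, the product of the Elavl1 gene, is an RNA-binding protein of AU-rich and U-rich sequences that is mostly nuclear, shuttles too, and is known for stabilising mRNAs. In an RNA immunoprecipitation read on arrays, a transcript that takes a larger share of the precipitated RNA than of the input is called enriched, and one that takes a smaller share is called depleted.

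The comparison used the 5 HuR WT arrays among the 11 of the series: 3 of IP RNA and 2 of total nuclear RNA. The other 6 arrays are from HuR KO cells, which lack HuR. By the methods, both cell types were isolated from mid-gestation embryos and kept in exponential growth in serum-containing medium, and the labels and methods used here do not say how many embryos or lines they stand for. A monoclonal antibody to hnRNP A1 was used on nuclear extracts prepared so as to keep the complexes whole, after pre-clearing with control IgG, and the antibody brings down the proteins bound to hnRNP A1 as well. Equal masses of IP and nuclear RNA were amplified by the methods, so an array shows shares of an RNA population and not amounts. No array of the series holds RNA from the control IgG precipitates, which the authors excluded because its yield was too low for arrays. The nuclear RNA is the only reference. The methods give 3 biological replicates per condition, whereas the series holds 2 arrays of HuR WT nuclear RNA.

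The members of the comparison are array probes. Of the 45281 probes on the arrays, 15190 (33.5%) were kept because their detection p-value, the rank of a probe among the negative controls of its array, was at most 0.01 on every array of HuR WT IP or of HuR WT nuclear RNA. Of these, 12726 were above background on all 5 arrays, 2200 were kept through nuclear RNA only and 264 through the IP only. Another 2307 probes were above background on some array but not on every array of either fraction, and 27784 on none. The 100 probes just inside the threshold (worst detection p 0.00855 to 0.00962) had a median log2 level of 5.47 and a median log2 difference between IP and nuclear RNA of -0.07. The 100 just outside (0.0107) had 5.58 and 0.38. Probe identifiers come without gene names or sequences in these files. No gene is therefore named, and neither the fibroblast markers nor Elavl1 could be checked against the labels.

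The nuclear RNA arrays detected 16206 and 15575 probes and the IP arrays 13737 to 14781, at mean deposited intensities of 212 to 347. The 100 brightest probes took 16.6% and 16.9% of the positive signal on the nuclear RNA arrays and 17.8% to 18.9% on the IP arrays. Normalized log2 levels correlated across the kept probes, which are not independent replicates, at 0.992 between IP replicates 1 and 2, at 0.973 and 0.978 between these and IP replicate 3, and at 0.970 between the nuclear RNA replicates. Between IP and nuclear RNA the correlations were 0.903 to 0.934. The first principal component, with 71.6% of the variance, separated IP from nuclear RNA. The next, with 17.8%, put nuclear RNA replicate 1 and IP replicate 3 on one side and the remaining 3 arrays on the other. The median absolute log2 difference was 0.48 between the means of IP and nuclear RNA, 0.28 between the nuclear RNA replicates and 0.15 to 0.27 between IP replicates. Thus the fractions lay farther apart than replicates of either fraction. A gap of over 2-fold separated the nuclear RNA replicates at 610 probes, IP replicates 1 and 2 at 17, and IP replicate 3 from replicates 1 and 2 at 554 and 408.

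Most nuclear transcripts measured here took a similar share of the IP and of its input. The fold change between the means lay within 1.5-fold in either direction at 8904 probes (58.6% of those kept), between 1.5-fold and 2-fold at 3863 (25.4%), and beyond 2-fold at 2423. The log2 difference, IP minus nuclear RNA, had a median of -0.02, quartiles of -0.50 and 0.46, and extremes of -4.28 and 2.97. Quantile normalization gives the arrays 1 common distribution, so a median near 0 follows from it and is not a measurement.

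Enrichment over 2-fold was found at 1047 probes and depletion over 2-fold at 1301 (adjusted p under 0.05 from limma, with Benjamini-Hochberg adjustment over the kept probes). These are 6.89% and 8.56% of the probes tested. At any fold, 2722 probes were higher and 2869 lower in the IP at that adjusted p, and 31 and 44 more were beyond 2-fold without passing it. Every enriched probe had all 3 IP arrays above both nuclear RNA arrays, and 1300 of the 1301 depleted probes had all IP arrays below both. Over all kept probes the arrays were separated in this way at 4549 upward (29.9%) and 4700 downward (30.9%), so that separation alone was far commoner than a call.

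Among probes above background on all 5 arrays, where both fractions gave a measured level, depletion reached further than enrichment. They were 963 of the enriched and 899 of the depleted probes, or 7.57% and 7.06% of the 12726. Their median change was 2.30-fold and 2.41-fold, and the top 10% of each began at 3.08-fold and 3.46-fold. A change over 3-fold was seen at 115 of these enriched and 176 of these depleted probes, over 4-fold at 13 and 50, and over 8-fold at 0 and 3. All of them were chosen by a test on these arrays, which favours large values. Every IP array exceeded every nuclear RNA array by over 2-fold at 340 of the enriched probes, and the converse held at 337 of the depleted probes. With a 4-fold gap these were 1 and 11 probes.

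**Figure D1:**
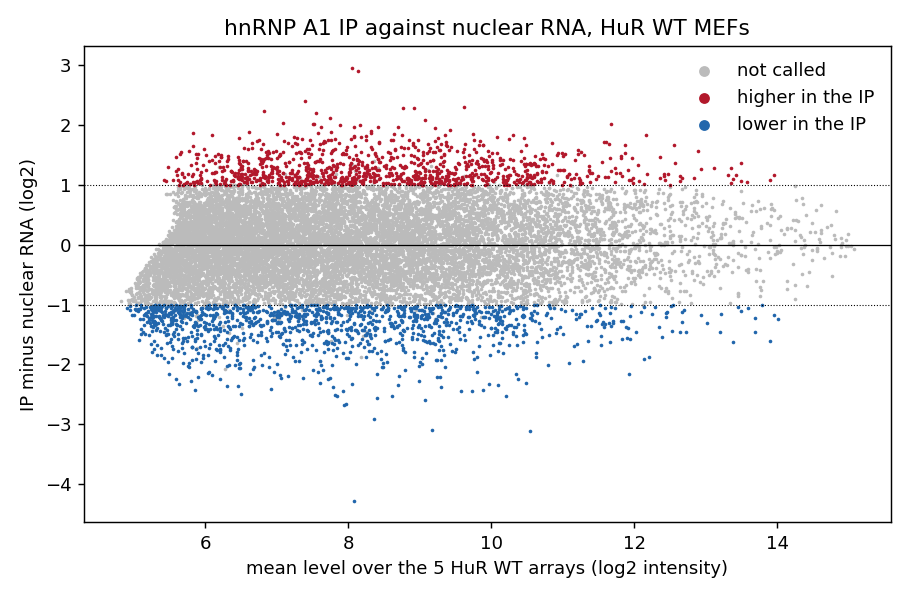
Log2 difference between the means of 3 IP and 2 nuclear RNA arrays of HuR WT cells (y axis) against the mean log2 level over the 5 arrays (x axis), with 1 point for each of the 15190 probes kept. Dotted lines mark 2-fold; the 1047 enriched probes (red) reach 2.97 and the 1301 depleted probes (blue) reach -4.28.

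The deepest depletion was at probe ILMN_1246153. Its log2 level was 10.88 and 10.43 on the nuclear RNA arrays and 5.57, 6.37 and 7.19 on IP replicates 1 to 3. All IP arrays lay far below both nuclear RNA arrays, although the IP arrays were spread over more than 1 log2 unit. The IP mean was 6.38 ± 0.81 (SD, n = 3), against 10.66 ± 0.32 (SD, n = 2) for nuclear RNA. This is a 19.4-fold depletion, a log2 difference of -4.28 (standard error 0.42, adjusted p = 0.00212 from limma). IP replicate 1 was barely above background, with a deposited intensity of 22.6 and a detection p of 0.00962, against 1710 and 1290 in nuclear RNA.

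Probe ILMN_2998658 marks a transcript that was abundant in the nuclear RNA and still well measured in the IP. Its log2 level was 12.52 and 12.30 in nuclear RNA and 9.06, 9.18 and 9.66 in the IP. The arrays of each fraction were close together and the fractions did not overlap. It was 8.64-fold depleted, with means of 9.30 ± 0.32 (SD, n = 3) and 12.41 ± 0.15 (SD, n = 2), a log2 difference of -3.11 (standard error 0.22, adjusted p = 0.00212 from limma).

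The highest fitted enrichments were at probes ILMN_2588055 and ILMN_2846865, and both rest on 1 nuclear RNA array. ILMN_2588055 had log2 levels of 4.69 and 7.86 on the nuclear RNA arrays and 9.72, 9.45 and 8.55 on the IP arrays. The IP arrays lay above both nuclear RNA arrays, but the latter were farther from each other than the higher of them was from any IP array. The fit gave it a 7.81-fold enrichment, or 2.97 on the log2 scale, with a standard error of 0.80 and an adjusted p of 0.0235 from limma. On nuclear RNA replicate 1 the probe was not above background, with a deposited intensity of 5.62 against 221 on replicate 2. ILMN_2846865 had log2 levels of 4.59 and 8.20 in nuclear RNA and 9.86, 9.42 and 8.64 in the IP. The fit gave 7.51-fold, or 2.91 on the log2 scale, with a standard error of 0.89 and an adjusted p of 0.0366 from limma. Its deposited intensities in nuclear RNA were 2.19 and 283. Over the 11 arrays of the series the log2 levels of these probes were never more than 0.34 apart. Without nuclear RNA replicate 1 their log2 values were 1.40 and 1.12 and neither passed the test (adjusted p = 0.0781 and 0.131 from limma).

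**Figure D2:**
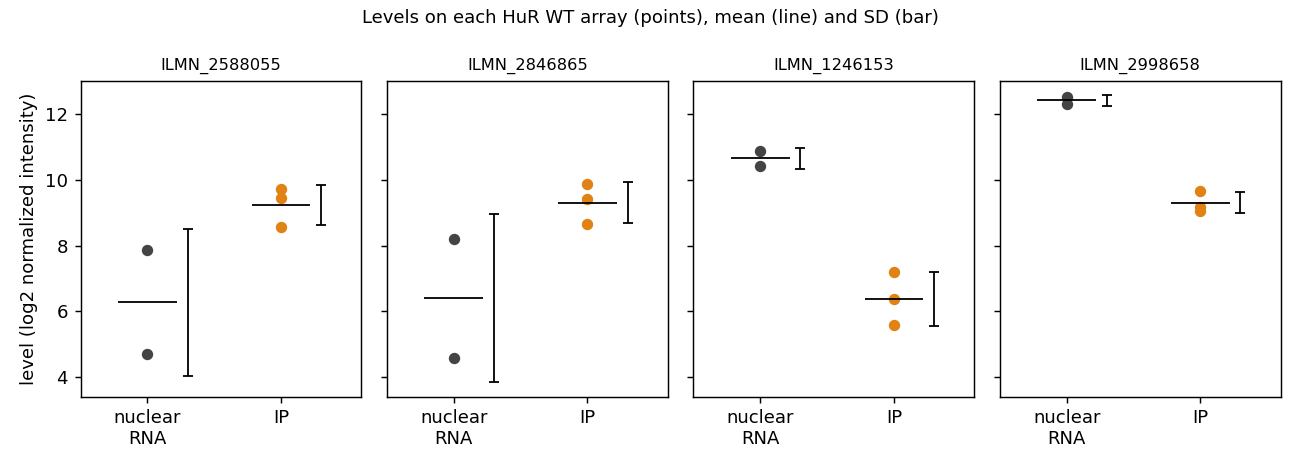
Normalized log2 levels (y axis) of the probes with the highest fitted enrichment (left pair) and the deepest depletion (right pair) on each HuR WT array, in nuclear RNA (grey, 2 arrays) and IP (orange, 3 arrays), with the mean as a line and the SD as a bar. The nuclear RNA arrays are 4.69 and 7.86 at ILMN_2588055 but 12.52 and 12.30 at ILMN_2998658.

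Where both nuclear RNA arrays were above background, enrichment went up to 5.30-fold. That probe, the highest of its kind, had an IP level of 8.36 ± 0.32 (SD, n = 3) and a nuclear RNA level of 5.96 ± 0.14 (SD, n = 2), a log2 difference of 2.41 (standard error 0.23, adjusted p = 0.00212 from limma). The next had 10.54 ± 0.18 (SD, n = 3) and 8.24 ± 0.01 (SD, n = 2) and was enriched 4.92-fold. The 10 highest probes of this kind ran from 5.30-fold down to 4.06-fold, and at each of them the lowest IP array exceeded the higher nuclear RNA array by 3.13-fold to 4.43-fold. The 10 deepest depletions with all 3 IP arrays above background ran from 19.4-fold to 5.78-fold. Their smallest gaps between arrays of the fractions were 1.52-fold to 9.42-fold.

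Detection split the calls unevenly. Of the enriched probes, 963 were above background on both nuclear RNA arrays, 45 on 1 and 39 on neither. Of the depleted probes, 899 were above background on all 3 IP arrays, 139 on some and 263 on none. Keeping a probe through only 1 fraction favours a higher level there. Of the 2200 probes kept through nuclear RNA only, 357 had the higher mean in the IP, and of the 264 kept through the IP only, 1 had the higher mean in nuclear RNA. The 402 depleted and 84 enriched probes kept in this way are therefore no support for a direction. For the 39 and 263 probes the dimmer fraction gives only a bound, set from the mean of the brighter fraction and, on each dimmer array, the higher of its lowest detected signal and the signal of the probe. The bound exceeded 2-fold at 14 of the 39 enriched and 49 of the 263 depleted probes. The highest bounds were 2.82-fold for enrichment and 4.97-fold for depletion, and no test was made of a bound. The lowest detected log2 signals were 5.29 and 5.39 in nuclear RNA and 5.55 to 5.80 in the IP. The order of enriched and depleted counts turned when detection was required on all 5 arrays, where limma called 966 probes higher and 900 lower among 12726.

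Among probes above background on all 5 arrays, calls in both directions were found in every bin of level from 6 upward. Below a mean log2 level of 6 over the 5 arrays, 1799 of the 2289 probes were kept through nuclear RNA only and 199 through the IP only. The remaining 291 were above background on all 5 arrays, and 0 of them were enriched and 0 depleted. Calls were therefore compared from 6 upward and only over probes above background on all 5 arrays. From 6 to 7, 132 of 2675 probes were enriched (4.93%) and 86 depleted (3.21%). From 7 to 9 the depleted shares, 8.43% and 8.58%, lay slightly above the enriched shares of 8.07% and 8.46%. In the bins between 9 and 12 the enriched shares, 8.21% to 9.57%, lay above the depleted shares of 6.89% to 8.78%. Among the 511 most abundant probes, at 12 and over, 31 were enriched by up to 3.57-fold and 34 depleted by up to 3.74-fold. The differences between these shares were not tested. The median standard error of the log2 difference fell from 0.21 at levels of 6 to 7 to 0.18 at the top. Enriched probes of this kind had median log2 levels of 9.11 in the IP and 7.76 in nuclear RNA, and depleted probes 8.07 and 9.45.

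**Figure D3:**
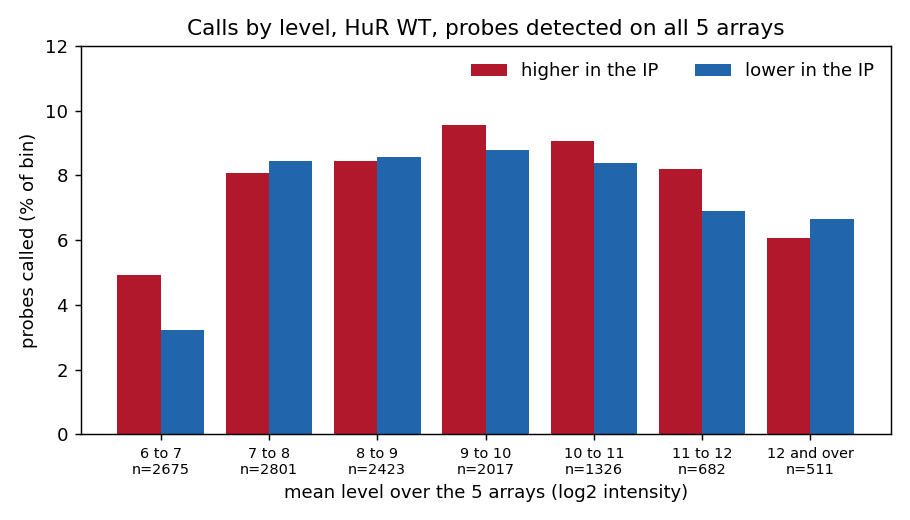
Percentage of the probes above background on all 5 HuR WT arrays that were enriched (red) or depleted (blue) in the IP, in bins of mean log2 level from 6 upward (x axis, with the number of probes). Among the bins shown, the shares are lowest from 6 to 7, at 4.93% and 3.21%, and lie between 6.07% and 9.57% in the bins above. The bin below 6, with 291 such probes and 0 calls, is not drawn.

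The arrays differed in how far they lay from the nuclear RNA mean at the called probes. These probes were called on the same arrays, so a shift on each IP array follows from the choice and only the sizes are given. Among enriched probes the median log2 level above the nuclear RNA mean was 1.27, 1.25 and 1.20 on IP replicates 1 to 3. Among depleted probes it was -1.35, -1.33 and -1.18. The shares given below for the nearest IP array and the farther nuclear RNA array were not computed over all kept probes. They cannot be read as a trait of the called probes. Over all kept probes the first principal component put nuclear RNA replicates 1 and 2 at -61.7 and -43.3. It put IP replicates 1 to 3 at 39.5, 39.2 and 26.4. IP replicate 3 was the IP array nearest to nuclear RNA at 779 of the depleted probes (59.9%) and at 505 of the enriched probes (48.2%). Of the nuclear RNA arrays, replicate 1 was the one farther from the IP at 66.8% of the enriched and 65.8% of the depleted probes. Leaving it out lowered the counts to 887 enriched and 1132 depleted probes, of which 713 and 894 were among the 1047 and 1301. Leaving out nuclear RNA replicate 2 gave 1350 and 1676, with 916 and 1128 among them. In these 2 fits the detection rule needed only 1 nuclear RNA array, and 15749 and 16377 probes were tested. The nuclear RNA replicates were over 2-fold apart at 39 of the enriched and 66 of the depleted probes. Over all kept probes this held at 610 of 15190, so these counts are not read as a trait of the called probes.

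**Figure D4:**
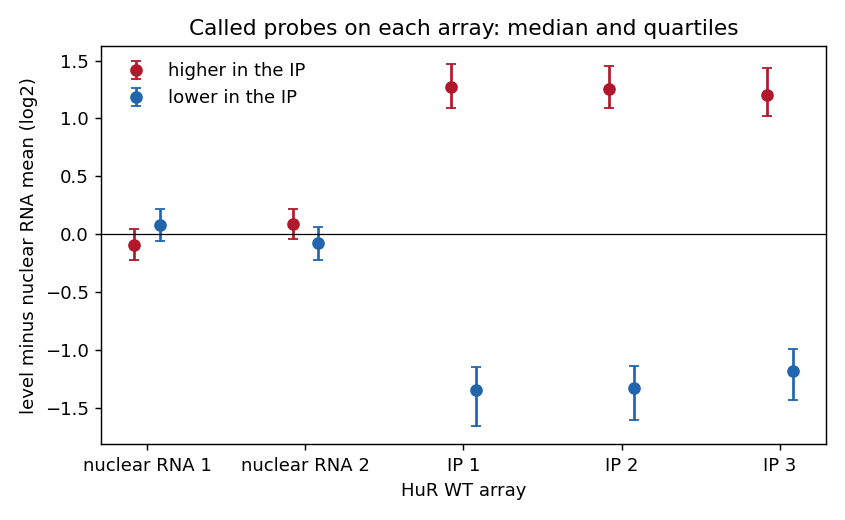
Median and quartiles, over the 1047 enriched (red) and 1301 depleted (blue) probes, of the log2 level on each HuR WT array minus the nuclear RNA mean of the probe. The IP medians lie between 1.20 and 1.27 and between -1.35 and -1.18. The nuclear RNA medians lie between -0.09 and 0.09, with quartiles out to -0.22 and 0.22. The probes were chosen on these arrays.

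The HuR KO arrays had no part in these calls and were fitted alone, over 14058 probes kept by the same rule. There 7.86% of the probes were enriched and 9.75% depleted. Of the 1047 probes enriched in HuR WT, 985 were kept in HuR KO. In HuR KO their median enrichment was 2.14-fold, 957 of them lay on the enriched side, 531 were called enriched and 4 depleted. The 531 are 50.7% of the HuR WT list and 48.1% of the HuR KO list. Of the 1301 probes depleted in HuR WT, 1120 were kept in HuR KO. Their median depletion there was 2.30-fold, 1109 lay on the depleted side, 702 were called depleted and 0 enriched. The 702 are 54.0% of the HuR WT list and 51.2% of the HuR KO list. The HuR WT lists include the 84 enriched and 402 depleted probes kept through a single fraction, and HuR KO probes could be kept so too. At such probes the filter favours a side, so part of the sharing can follow from it. With detection required on every array of the cell type, 456 probes were called enriched and 534 depleted in both cell types. The HuR WT lists under this rule held 966 and 900 of 12726 probes. The sizes of the HuR KO lists under this rule are not given, so no background share stands beside this overlap. Over the 13203 probes kept in both cell types, 49.4% lay above 0 in HuR KO and the median was -0.01.

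The 4 named probes took the same direction in HuR KO. ILMN_1246153 was above background on 0 of the 3 HuR KO IP arrays. Set against the lowest detected signal of those arrays, it was at least 7.67-fold lower there than in HuR KO nuclear RNA, where its level was 8.29 ± 0.20 (SD, n = 3). ILMN_2998658 differed by -2.63 (adjusted p = 0.00396 from limma). ILMN_2588055 and ILMN_2846865 had log2 differences of 1.34 and 1.49 there, which did not pass the test (adjusted p = 0.141 and 0.119 from limma). Their HuR KO nuclear RNA levels lay between 7.27 and 7.65 on all 3 arrays, and HuR KO IP replicate 1 was far above replicates 2 and 3, at 10.31 against 8.16 and 7.69 for the first probe. In the model of all 11 arrays, the difference of log2 enrichment between HuR KO and HuR WT was -1.61 (standard error 1.16) and -1.39 (standard error 1.27) for these probes and 0.50 (standard error 0.50) for ILMN_2998658. None of these differences passed the test (adjusted p of 0.645 to 0.773 from limma), and none is given for ILMN_1246153, whose HuR KO value is a bound.

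**Figure D5:**
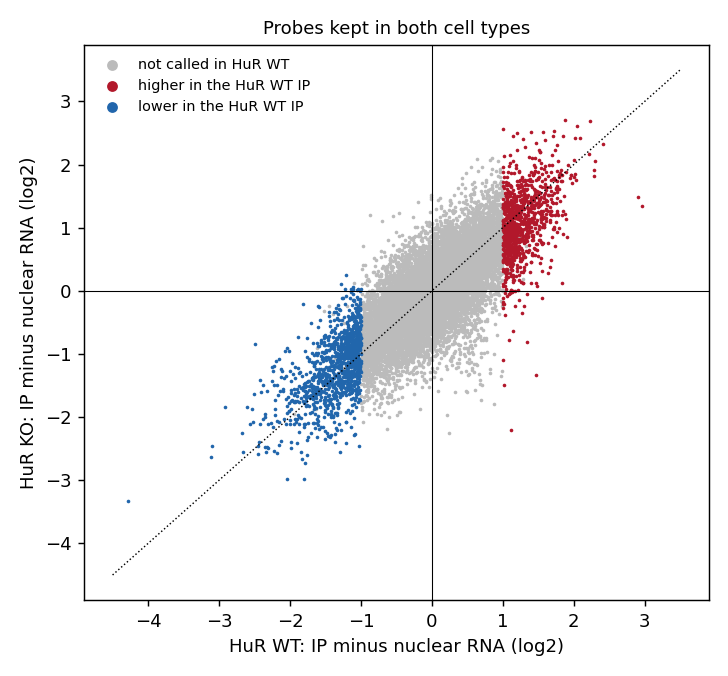
Log2 difference between IP and nuclear RNA in HuR WT cells (x axis) against the same quantity in HuR KO cells (y axis), for the 13203 probes kept in both, coloured by the call in HuR WT. The dotted line marks equal values. Of the probes enriched in HuR WT 957 lie above 0 in HuR KO, and of those depleted 1109 lie below 0. Probes kept through a single fraction, at which the filter favours a side, are included.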

How the data were processed

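Total nuclear RNA and anti-hnRNP A1 IP RNA were measured on MouseWG-6 v2 BeadChips, and samples were grouped by their labels. The intensity values deposited by the authors, 1 per probe on each array, were not normalized between arrays, with 32.7% to 36.5% of the values of a HuR WT array below 0, as after a background subtraction. The methods name GeneArmada for background correction, quantile normalization and log2 transformation, but the deposited values are neither quantile normalized nor on a log scale; whether the subtraction was made there is not stated. A detection p-value was deposited beside each intensity; the one beside HuR KO nuclear RNA replicate 3 repeats the name of replicate 1 and was assigned by position. With limma 3.58.1 (R 4.3.3; statmod 1.5.0), intensities were corrected by a normal-exponential model from the detection p-values (offset 16), quantile normalized over the 5 HuR WT arrays and log2 transformed. The offset raises low values, so that fold changes near background are understated. IP and nuclear RNA were compared by lmFit and eBayes with Benjamini-Hochberg adjustment (called at an adjusted p under 0.05 and over 2-fold) in place of the methods' t-test, since 3 and 2 arrays leave 3 residual degrees of freedom. The HuR KO arrays were processed in the same way on their own. The difference of enrichment was an interaction over all 11 arrays and 16045 probes kept in at least 1 group. The HuR WT fit was also run on simulated data with 200 changed probes. It called 61% of changes of 1.5 on the log2 scale and 91% of changes of 2.5. False calls were 5.43% and 2.67% of all calls. The simulated noise was independent between arrays, without deviations shared by many probes of an array. The 200 changed probes are also far fewer than the 2722 higher and 2869 lower in the IP at that adjusted p in the data. These rates therefore do not carry over to the real calls. Changes as small as the median call, 1.20 for enriched and 1.27 for depleted probes, were not simulated. Named probes are the 2 largest changes per direction among called probes whose arrays do not overlap and with at least 1 array of the dimmer fraction above background. Planned gene lists and averages over probes sharing a gene were left out, since probes are not paired with genes here. The rule of the comparison, the named-probe rule and the alternatives were chosen with earlier results of these data known. BeadChip identity was not known and could not be fitted. The number of arrays limits the precision.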

Additional observations from a re-analysis of the deposited data

Results flagged for a closer look

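Tested as an interaction in limma over 16045 probes, enrichment differed between HuR KO and HuR WT at 17 of the 1047 probes enriched in HuR WT and at 9 of the 1301 depleted (adjusted p under 0.05). Over all probes tested, enrichment was higher in HuR KO at 0.143% and lower at 0.804%. At all 17 and all 9 the change was weaker in HuR KO or turned, a direction that the choice of the probes on the HuR WT arrays favours. The 17 had a median log2 enrichment of 1.12 in HuR WT and -0.57 in HuR KO, where 14 of them were above background on no IP array, and 8 of these 17 on no array at all. The 9 had medians of -1.35 and 0.10, and none of them was above background on any HuR KO array. The fitted HuR KO values of such probes are at background. Without HuR WT nuclear RNA replicate 1 the counts were 3 and 0. Leaving out its replicate 2 gave 15 and 10, and they were 19 and 11 without HuR KO IP replicate 1 and 5 to 10 and 1 to 6 without any 1 of the other 8 arrays.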

How the results depend on the processing

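No enriched probe was called depleted, and no depleted probe enriched, under any alternative run. Signs of probes that lost their call were not compared. The values of the named probes kept their sign wherever they were fitted. ILMN_2588055 and ILMN_2846865 were not fitted when detection was required on every array. The 1047 enriched and 1301 depleted probes became 649 and 785 with an offset of 50 and 517 and 538 with the methods' t-test after adjustment; its unadjusted threshold gave 953 and 1166. Leaving out 1 array gave 887 to 1350 enriched and 1132 to 1676 depleted probes, the lowest without nuclear RNA replicate 1 and the highest without nuclear RNA replicate 2. With 1 nuclear RNA array left, it is assumed to vary like the IP arrays, and the detection rule kept more probes. The enriched share of all calls was 44.6%, with 43.6% to 51.8% under the alternatives; median scaling gave 51.1%, and normalizing each fraction by itself gave 50.3%. Probes called in both cell types numbered 323 enriched and 468 depleted with an offset of 50. The methods' t-test after adjustment gave 265 enriched and 256 depleted. Leaving out 1 array gave 456 to 569 and 588 to 768. The differences of enrichment were called at 8 enriched and 2 depleted probes with an offset of 50, 30 and 31 without the background model, 5 and 9 with median scaling, 11 and 19 with each fraction normalized by itself, 26 and 25 with no detection filter and 85 and 86 with array weights. Over the probes detected on every array limma called 0 in both directions (122 and 78 at an unadjusted p under 0.05). Leaving out 1 array gave 3 to 19 and 0 to 11. The cause was not tested.

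Same-numbered nuclear RNA and IP arrays deviated from their group means with correlations across probes of -0.27 and 0.44, and IP replicate 3 deviated with nuclear RNA replicate 1 at 0.47. As there are 2 nuclear RNA arrays, whose deviations mirror each other, these values cannot show a pairing. With the replicate number as a block, in which IP replicate 3 has no partner and adds nothing, 1174 probes were enriched and 1519 depleted, and the differences of enrichment were called at 20 and 14 probes. ILMN_2588055 and ILMN_2846865 lost their call with no detection filter, with the methods' t-test and without nuclear RNA replicate 1 or IP replicate 1. ILMN_2846865 lost it also without the background model and without IP replicate 2, and ILMN_1246153 with the adjusted t-test (adjusted p = 0.0502).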
